A study of Canis lupus familiaris with 8 samples.

Results

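The genes described here are 9 components of the signalling axis that runs from the cytokines IL-6 and oncostatin M to the transcription factor STAT3, measured in peripheral blood mononuclear cells of dogs. They were chosen by name (OSM, OSMR, IL6, IL6R, IL6ST, STAT3, SOCS3, PIM1 and JAK2), and each stood in 1 row among the 35048 genes of the count tables. Of the 5 obese dogs, dog 1 is labelled Dachshunds, dog 2 Chihuahua, dogs 3 and 4 Labrador retrievers, and dog 5 Welsh Corgi. The 3 normal dogs are all labelled Beagle. The labels used here give no treatment, age or sex, and because no obese dog was a Beagle, body condition and breed cannot be told apart in any comparison. The study set out to compare gene expression in these cells between obese and normal dogs. RNA was counted as 3′ tags, reads primed at the poly(A) tail, with 10264202 to 14910982 counts per library. Levels are given as CPM, counts scaled to a common library size with TMM factors, and a tag count depends little on transcript length.

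IL-6 and oncostatin M are cytokines of a family whose receptors all contain gp130, the signal-transducing chain encoded by IL6ST. IL-6 binds IL6R, which then recruits gp130, while oncostatin M binds a complex of gp130 with OSMR. Engaged receptors activate JAK kinases, among them JAK2, which phosphorylate STAT3. STAT3 enters the nucleus and induces target genes that include SOCS3, a feedback inhibitor that binds gp130 and the JAKs, and PIM1, a serine/threonine kinase that promotes survival. In blood, monocytes and neutrophils are sources of oncostatin M, and IL6R is carried by monocytes, neutrophils and subsets of T cells. IL6R can also be shed from the cell surface and then act on cells that have gp130 alone.

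OSM had lower values in all 5 obese dogs than in the 3 normal dogs and IL6R had higher ones, whereas the signalling chain IL6ST, the kinase JAK2 and STAT3 overlapped between the groups. None of these differences passed an adjusted p of 0.05 over all genes in edgeR's quasi-likelihood test. IL6 was not detected in any library, and SOCS3 had 5 counts in all. The other 7 members had enough counts to be tested: 3 had a positive and 4 a negative log2 fold change (obese minus normal), with a median of −0.01, beside 0.09 for all 20632 genes tested. Of the 7, 0 were called at an adjusted p under 0.05, where 0.233% of all genes were called (0.0485% higher and 0.184% lower in the obese dogs), and 2 had an unadjusted p under 0.05, where 15.7% of all genes did. OSM and IL6R were also the 2 members whose groups did not overlap, which held for 10.9% of all genes, 5.75% with the obese dogs higher and 5.16% with them lower. With other tests on the same counts, DESeq2 called 1 member, OSM, where it called 4.98% of all genes, and limma-voom with library quality weights called OSM and PIM1, where it called 19% of all genes.

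**Figure D1:**
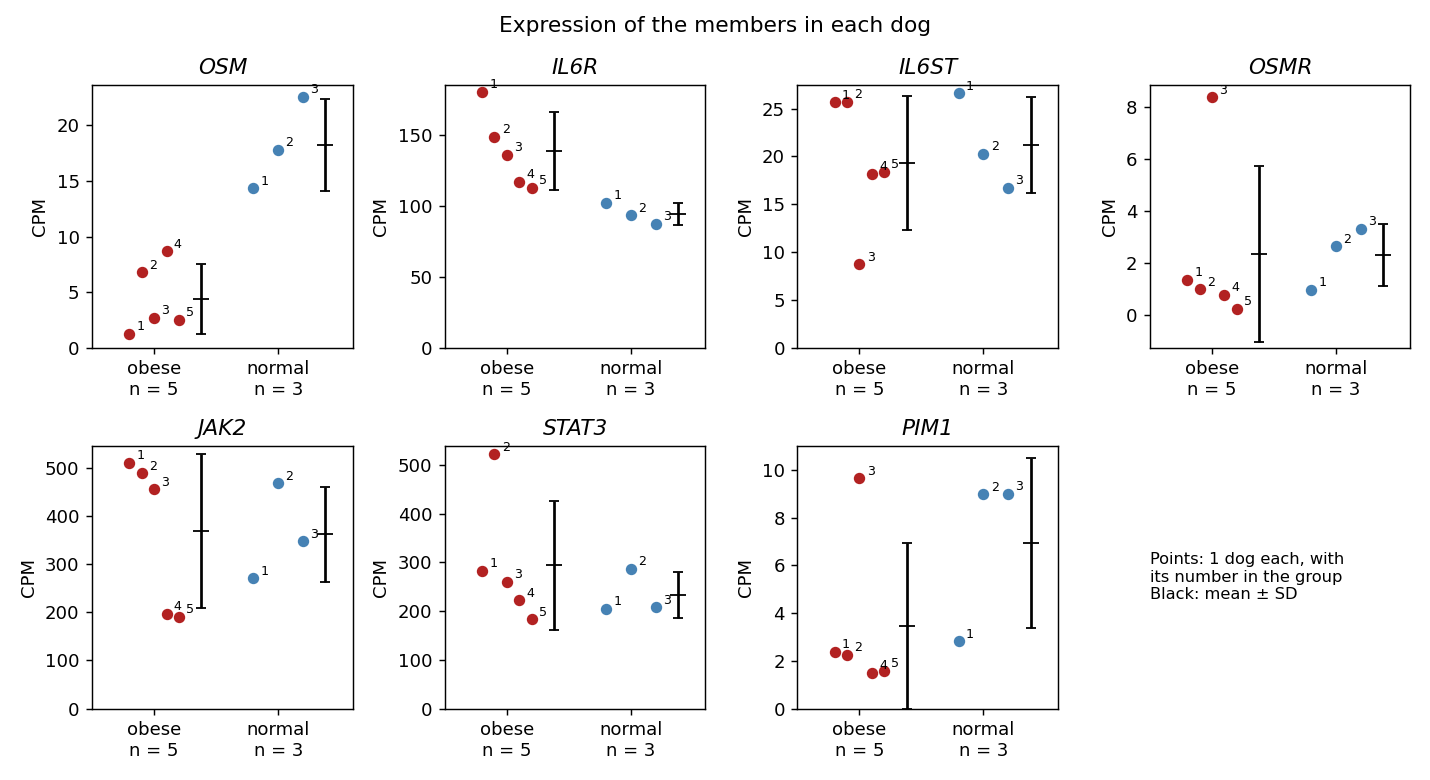
CPM of the 7 tested members in each dog, with obese dogs (red, n = 5) left of normal dogs (blue, n = 3), each dog numbered as in its group, and the mean ± SD in black. The obese dogs lie below all normal dogs for OSM and above them for IL6R, and obese dog 3 is the highest dog for OSMR and PIM1 and the lowest for IL6ST.

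Of the ligands, OSM, which encodes oncostatin M, had 1.25, 6.81, 2.72, 8.70 and 2.51 CPM in obese dogs 1 to 5, against 14.3, 17.8 and 22.6 CPM in normal dogs 1 to 3. Every obese dog was lower than every normal dog, and the gap lay between 8.70 CPM in obese dog 4 and 14.3 CPM in normal dog 1. The means were 4.40 ± 3.19 CPM in the obese dogs and 18.2 ± 4.14 CPM in the normal dogs (SD, n = 5 and n = 3). The fitted OSM level in the obese dogs was 0.244 times that in the normal dogs (95% confidence interval 0.104 to 0.571), a log2 fold change of −2.04 with a standard error of 0.554. With an unadjusted p = 0.00401 and an adjusted p = 0.147 (edgeR), OSM did not pass, and its p ranked 561 among the genes tested. The log2 fold change ran from −2.62, with the dog number as a block, to −1.81, without obese dog 1, over the 15 alternative settings. The adjusted p for OSM was 0.0147 with DESeq2 and 0.00864 with limma-voom, and over all 15 settings it ran from 0.00864 to 0.533.

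The OSM values among the obese dogs differed 6.97-fold, and among the normal dogs 1.57-fold. Counting error did not cover this range: the 95% Poisson interval of obese dog 1, with 11 counts, was 0.623 to 2.23 CPM, and that of obese dog 4, with 156 counts, was 7.39 to 10.2 CPM. Both intervals, which cover counting error only, lay below that of the lowest normal dog, 12.4 to 16.5 CPM. The 2 Labrador retrievers of the obese group, dogs 3 and 4, had 2.72 and 8.70 CPM, so dogs of the same breed differed by more than the counting intervals of either.

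IL6, the other ligand, had 0 counts in all 8 libraries. A count of 0 allows up to 0.0442 CPM over the obese group and 0.077 CPM over the normal group, taken as 3 counts of the summed library sizes. A tag is counted only where it falls inside the annotated gene, and no source used here gives the annotation behind the counts, so the limit applies to tags assigned to IL6. Whether the ligand level differed between the groups was not detectable at this depth.

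Among the receptors, IL6R, the ligand-binding chain for IL-6, had 181, 149, 136, 117 and 113 CPM in obese dogs 1 to 5, against 102, 93.5 and 87.4 CPM in normal dogs 1 to 3. All 5 obese dogs were above all 3 normal dogs, and the nearest values were 113 CPM in obese dog 5 and 102 CPM in normal dog 1. The means were 139 ± 27.5 CPM in the obese dogs and 94.4 ± 7.50 CPM in the normal dogs. The log2 fold change was 0.56 (standard error 0.231, 95% confidence interval 0.05 to 1.07), which corresponds to a level 1.47 times the normal one. IL6R did not pass (unadjusted p = 0.035, adjusted p = 0.285, edgeR). Over the 15 settings its log2 fold change ran from 0.43 with upper-quartile scaling to 0.71 with the dog number as a block. Its adjusted p did not pass in any of them. Summed T cell markers were also higher in all 5 obese dogs, at 870 to 1350 CPM, against 497 to 749 CPM in normal dogs. The highest T cell sum was in obese dog 5, which had the lowest IL6R value of the obese group. The monocyte and neutrophil sums, given below, were lower in obese dogs 1, 2, 4 and 5 than in every normal dog. Whether the number of T cells, monocytes or neutrophils had a part in the IL6R values was not tested. In bulk RNA more cells of a type and more RNA per cell cannot be told apart.

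IL6ST, which encodes gp130, had 25.6, 25.7, 8.73, 18.2 and 18.4 CPM in obese dogs 1 to 5, against 26.6, 20.3 and 16.7 CPM in normal dogs 1 to 3. Obese dog 3 was the lowest of the 8 dogs, and the other 4 obese dogs had values between those of normal dogs 3 and 1. For IL6ST the log2 fold change was −0.13 with a 95% confidence interval of −0.94 to 0.67, and it did not pass (adjusted p = 0.893, edgeR). Without obese dog 3 it was 0.02. The ratio of IL6R to IL6ST counts, which no library scaling changes, was 7.06, 5.79, 15.6, 6.44 and 6.14 in obese dogs 1 to 5, against 3.85, 4.62 and 5.23 in normal dogs 1 to 3. The 5 obese dogs had higher ratios than all 3 normal dogs. IL6R alone already divided the groups in this way, so the ratio is not a separate observation. This ratio was chosen after the values were seen and was not tested.

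OSMR, the oncostatin M receptor chain, was scarce, with 4 to 74 counts per library. It had 1.36, 0.992, 8.39, 0.781 and 0.233 CPM in obese dogs 1 to 5, against 0.984, 2.66 and 3.32 CPM in normal dogs 1 to 3. Obese dog 3 was the highest of the 8 dogs and obese dog 5 the lowest, a 36.0-fold range within 1 group. The log2 fold change was −0.01 with a standard error of 0.976 and a 95% confidence interval of −2.17 to 2.16 (adjusted p = 0.998, edgeR), so that changes of more than 4-fold in either direction lie within the interval. Without obese dog 3 the log2 fold change was −1.52, and it did not pass there either. An uncharacterised RNA that overlaps OSMR in the reference annotation had 62 counts in all, against 209 for OSMR. No source used here says whether counting used strand, and reads of OSMR and of that RNA could not be told apart.

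JAK2, a kinase bound to gp130 and other cytokine receptors, had 511, 489, 456, 197 and 191 CPM in obese dogs 1 to 5, against 271, 468 and 347 CPM in normal dogs 1 to 3. The obese dogs fell on both sides of the normal dogs: obese dogs 1 and 2 were above all of them, obese dogs 4 and 5 below all of them, and obese dog 3 between. The log2 fold change was 0.03 (95% confidence interval −0.84 to 0.89, adjusted p = 0.982, edgeR), and with upper-quartile scaling it was −0.12. An uncharacterised RNA that overlaps JAK2 in the reference annotation had 12357 counts in all, against 36273 for JAK2. It had 896 to 3132 counts per library, and reads of the 2 genes could not be told apart.

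STAT3 had 283, 521, 259.7, 222 and 183 CPM in obese dogs 1 to 5, against 205, 287 and 208 CPM in normal dogs 1 to 3. Obese dog 2 was the highest of the 8 dogs and obese dog 5 the lowest, with the remaining obese dogs inside the normal range. The mean was 294 ± 133 CPM in the obese dogs and 233 ± 46.6 CPM in the normal dogs. The log2 fold change was 0.33 with a 95% confidence interval of −0.43 to 1.10, and it did not pass (adjusted p = 0.677, edgeR). Without obese dog 2 it was 0.02. The interval allows a STAT3 level in the obese dogs between 0.740 and 2.14 times the normal one. These are mRNA levels, and phosphorylation of STAT3 was not measured.

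Of the STAT3 target genes, PIM1 had 2.38, 2.25, 9.64, 1.51 and 1.57 CPM in obese dogs 1 to 5, against 2.81, 8.96 and 8.99 CPM in normal dogs 1 to 3. Obese dogs 1, 2, 4 and 5 were below every normal dog, and obese dog 3 was above every normal dog. For PIM1 the log2 fold change was −1.01 (standard error 0.686, 95% confidence interval −2.53 to 0.51), and it did not pass (adjusted p = 0.509, edgeR). Without obese dog 3 it was −1.88 and passed (adjusted p = 0.0387, edgeR), in a fit that called 8.28% of all genes. With limma-voom, whose library weights ran from 0.279 for obese dog 3 to 3.54 for normal dog 3, it was −1.94 (adjusted p = 0.0184). Normal dog 1, at 2.81 CPM, lay close to obese dog 1, at 2.38 CPM, and their counting intervals of 1.47 to 3.64 CPM for the obese dog and 2.01 to 3.83 CPM for the normal dog overlapped.

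SOCS3, the feedback inhibitor, had 1 count in obese dog 2, 4 counts in obese dog 4 and 0 in the other 6 dogs. Summed over the obese group this was 0.0737 CPM (95% Poisson interval 0.0239 to 0.172), and over the normal group 0 counts allow up to 0.077 CPM. The interval of the summed counts leaves out variation between dogs. The normal limit lies inside it, so no difference in SOCS3 was detectable at this depth. The SOCS3 gene is the shortest of the 9 in the reference annotation. Where the counted gene model ends is not known from the sources used here, and the values limit the tags assigned to SOCS3 and not its transcription.

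Summed markers of other cells, in which the abundant markers weigh most, were high or low in the same dogs as several members. The 10 monocyte markers summed to 1005 to 1586 CPM in obese dogs 1, 2, 4 and 5 and to 3927 CPM in obese dog 3, against 2989 to 6069 CPM in the normal dogs. The 10 neutrophil markers summed to 315 to 774 CPM in those 4 obese dogs and to 3899 CPM in obese dog 3, against 1126 to 3442 CPM in the normal dogs. The single markers went both ways: 6 of the 10 monocyte markers had a positive and 4 a negative log2 fold change (median 0.13), and of the 9 neutrophil markers tested 4 were positive and 5 negative (median −0.48). All markers of both lists had counts, and none of the 10 monocyte markers or the 9 neutrophil markers tested was called (edgeR). The erythroid markers summed to 1191 CPM in obese dog 3, to 49.2 to 96.8 CPM in the other obese dogs and to 35.5 to 42.1 CPM in the normal dogs. In obese dog 3, PIM1 and OSMR were above every normal dog, as the neutrophil sum was. In the same dog OSM was 2.72 CPM, below every normal dog, the monocyte sum fell inside the normal range and the neutrophil sum above it. The part of cell composition in the OSM, PIM1 and OSMR values was not tested. Beside these lists, platelet markers summed to 60.5 to 1184 CPM in obese dogs, against 7.75 to 29.8 CPM in normal dogs, plasma cell markers to 132 to 249 CPM in obese dogs, against 302 to 1078 CPM in normal dogs, and B and NK cell markers overlapped between the groups.

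**Figure D2:**
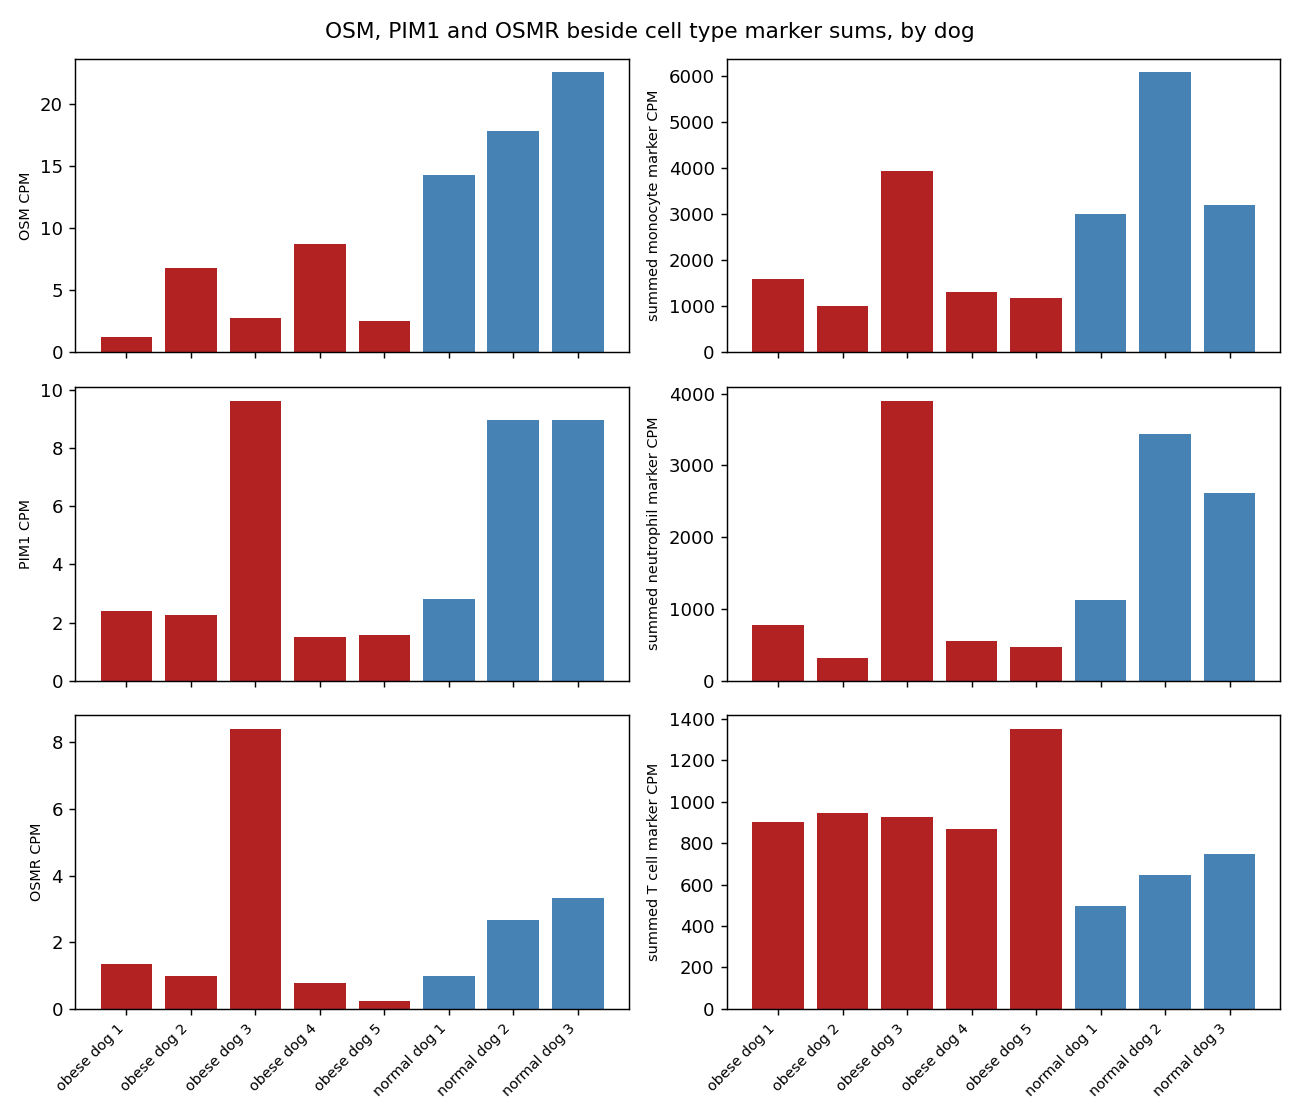
Bars give, for each dog (obese in red, normal in blue), the CPM of OSM, PIM1 and OSMR on the left and the summed CPM of monocyte, neutrophil and T cell markers on the right. Obese dog 3 has the PIM1, OSMR, monocyte and neutrophil values of a normal dog or higher, and an OSM value of 2.72 CPM, below all normal dogs.

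The genes whose profile over the 8 dogs was nearest to that of OSM were NDC80, a kinetochore protein, ASF1B, a histone chaperone, and ELOVL7, a fatty acid elongase. Nearness was the root mean square difference of the log2 CPM profiles, each centred on its mean, among 10053 named genes with at least 5 CPM on average. It was 0.546 for NDC80, 0.558 for ASF1B and 0.605 for ELOVL7, where the median gene differed by 1.47 log2 units. The nearest of so many genes lie far below the median by choice. The profiles also hold the difference between the groups, and these genes were lower in every obese dog than in every normal dog. Of them edgeR called only NDC80 (log2 fold change −2.53, adjusted p = 0.039). Whether they share regulation with OSM was not tested. ELOVL7 had 2.16, 4.83, 2.84, 3.40 and 2.10 CPM in obese dogs 1 to 5, against 13.8, 12.7 and 10.5 CPM in normal dogs 1 to 3. NDC80 overlaps other genes in the reference annotation, 1 of them with counts that moved with it. The same search for SOCS3 could not be made, because SOCS3 had too few counts.

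The 56 other genes of the pathway, grouped by role, had 51 members with enough counts to be tested, and 0 of them passed among all genes (edgeR). Of the 51, 25 had a positive and 26 a negative log2 fold change, with a median of −0.01 beside 0.09 for all genes. An unadjusted p under 0.05 was found for 16 of the 51, where 15.7% of all genes had one. The groups did not overlap for 8, which were 4 higher and 4 lower in the obese dogs, where 10.9% of all genes did not overlap. DESeq2 called 6 of the 51 and limma-voom 16, where they called 4.98% and 19% of all genes. The 6 were IL27RA, STAT2, MCL1, BCL2L1, CCND1 and FOS. These were also among the 16 of limma-voom, as were IL27, ADAM17, TYK2, PIAS1 and PTPN2. Without obese dog 3 edgeR called 10 of the 51, where it called 8.28% of all genes: IL27RA and CCND1, which were higher in the obese dogs, and STAT2, PIAS1, PTPN1, CEBPB, CEBPD, BCL6, MCL1 and BCL2L1, which were lower. PTPN1, CEBPB, CEBPD and BCL6 are named because of that count, after their values were seen.

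**Figure D3:**
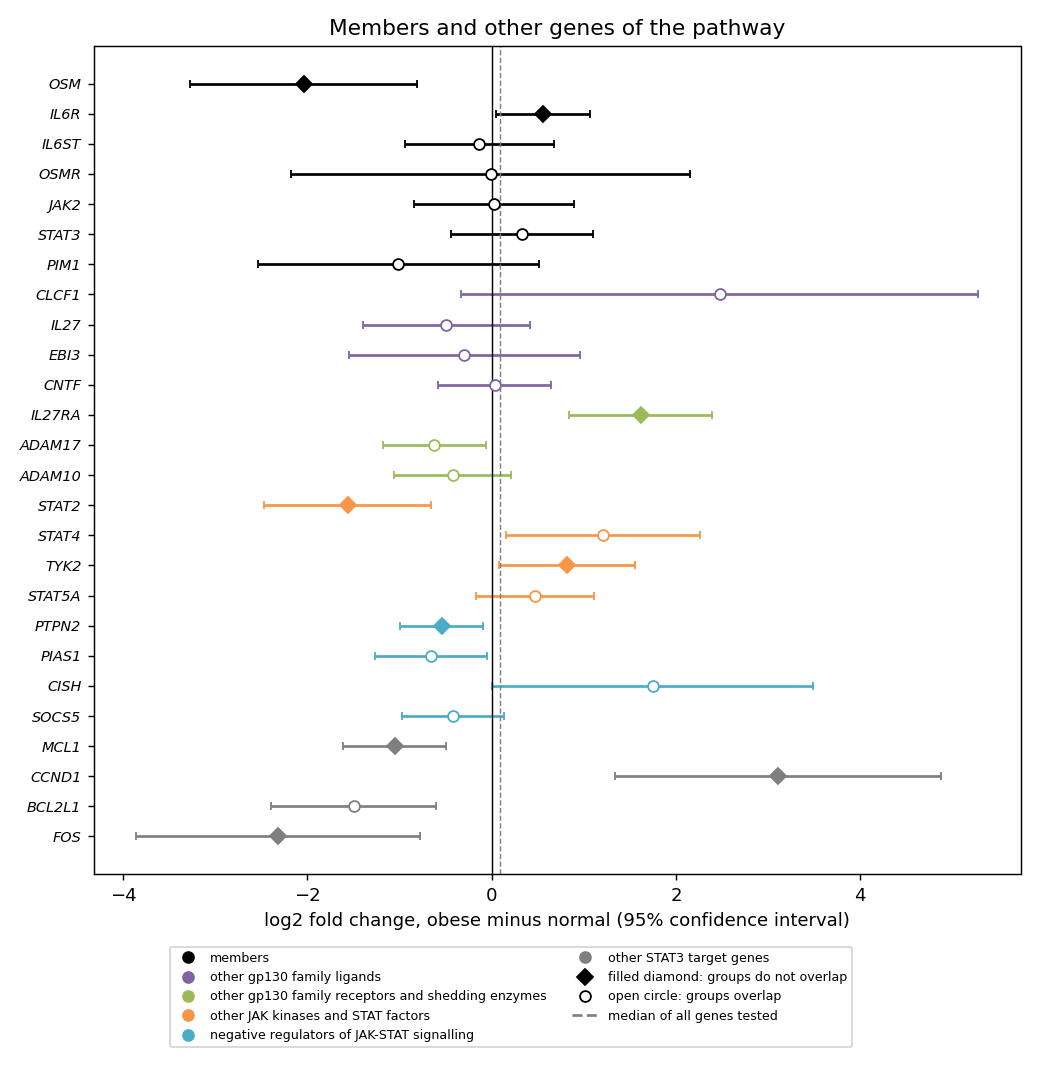
Log2 fold change (obese minus normal) with its 95% confidence interval from edgeR, for the 7 tested members in black and the named genes of the 5 other lists in colour. Filled diamonds mark genes whose groups do not overlap, among the members OSM (−2.04) and IL6R (0.56), and the dashed line is the median of all genes tested, 0.09.

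Among 7 other ligands of the gp130 family, 4 were tested. CLCF1, a cytokine that signals through the CNTF receptor, had 2.49, 14.3, 0, 6.91 and 6.24 CPM in obese dogs 1 to 5, against 1.90, 0.111 and 1.15 CPM in normal dogs 1 to 3. In 4 of the 5 obese dogs it exceeded all 3 normal dogs, and it was not detected in obese dog 3 (log2 fold change 2.48 with a standard error of 1.26, adjusted p = 0.377, edgeR). The CLCF1 value ran from 1.87 without obese dog 2 to 3.18 without normal dog 1. It was 0.84 with the dog number as a block, where obese dogs 4 and 5 do not bear on the fold change. IL27 and EBI3, which encode the subunits of IL-27, had log2 fold changes of −0.49 and −0.29, and neither passed in edgeR. With limma-voom IL27 was −0.85 and passed (adjusted p = 0.0456). IL27 overlaps APOBR and CNTF overlaps ZFP91 in the reference annotation, with counts that moved with those neighbours, so that the CNTF level of 74.4 ± 23.2 CPM in obese dogs, against 72.6 ± 8.09 CPM in normal dogs cannot be assigned to CNTF. EBI3 also overlaps a gene, which had 60 counts in all against 1164 for EBI3. IL11 had 0 counts in all dogs, and LIF and CTF1 were too low to test.

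Among 7 other receptors and shedding enzymes, all of them tested, IL27RA, which pairs with gp130 to bind IL-27, came nearest to the threshold. IL27RA had 80.6, 107, 45.1, 109.7 and 110.2 CPM in obese dogs 1 to 5, against 37.3, 21.1 and 30.0 CPM in normal dogs 1 to 3. All 5 obese dogs were higher than the normal dogs, with obese dog 3 nearest to them. For IL27RA the log2 fold change was 1.62 (standard error 0.349, 95% confidence interval 0.84 to 2.39, adjusted p = 0.0932, edgeR). With all 8 dogs, DESeq2 and limma-voom called IL27RA (adjusted p = 0.00134 and 0.00151). Without obese dog 3 its log2 fold change was 1.75, and it passed (adjusted p = 0.00476, edgeR). ADAM17, the protease that sheds IL6R from the cell surface, had 54.3 ± 12.6 CPM in obese dogs, against 83.3 ± 15.0 CPM in normal dogs, a log2 fold change of −0.62 (adjusted p = 0.279, edgeR). ADAM10, another shedding enzyme, had a log2 fold change of −0.42.

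Among 9 other JAK kinases and STAT factors, all tested, STAT2, which carries interferon signals, had 38.5 ± 11.9 CPM in obese dogs, against 114 ± 79.2 CPM in normal dogs. The STAT2 groups did not overlap (log2 fold change −1.56 with a standard error of 0.408, adjusted p = 0.133, edgeR), and normal dog 2, at 205 CPM, was far above the other dogs. Without normal dog 2 the STAT2 value was −0.85 (adjusted p = 0.509, edgeR). STAT2 passed with DESeq2 (adjusted p = 0.0217), with limma-voom (adjusted p = 0.0265) and without obese dog 3 (adjusted p = 0.031, edgeR). STAT4, which acts downstream of IL-12, had 504, 682, 252, 193 and 175 CPM in obese dogs 1 to 5, against 194, 143 and 132 CPM in normal dogs 1 to 3. Obese dogs 1, 2 and 3 were above all normal dogs, and obese dogs 4 and 5 were within the normal range (log2 fold change 1.21, adjusted p = 0.266, edgeR). TYK2, a JAK kinase also used by gp130 receptors, had 15.9 ± 4.46 CPM in obese dogs, against 9.03 ± 1.82 CPM in normal dogs, with no overlap and a log2 fold change of 0.82 (adjusted p = 0.278, edgeR). STAT5A had a log2 fold change of 0.47 (adjusted p = 0.457, edgeR).

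Of 15 negative regulators of JAK-STAT signalling, 14 were tested. PTPN2, a phosphatase that dephosphorylates JAKs and STATs, had 89.8 ± 11.5 CPM in obese dogs, against 131 ± 11.3 CPM in normal dogs, without overlap (log2 fold change −0.54 with a standard error of 0.203, adjusted p = 0.25, edgeR). PIAS1, a SUMO ligase that restrains STAT activity, had 424 ± 117 CPM in obese dogs, against 670 ± 127 CPM in normal dogs, with obese dog 3 inside the normal range. CISH, a SOCS family member, had 1.48, 2.78, 6.12, 15.0 and 18.5 CPM in obese dogs 1 to 5, against 2.88, 3.10 and 1.91 CPM in normal dogs 1 to 3. Its highest values were in obese dogs 4 and 5, and it did not pass (log2 fold change 1.75 with a standard error of 0.785, adjusted p = 0.316, edgeR). SOCS5 had a log2 fold change of −0.42 (adjusted p = 0.445, edgeR).

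Of 18 other STAT3 target genes, 17 were tested, 8 with a positive and 9 with a negative log2 fold change, and none passed (edgeR). MCL1, which blocks apoptosis, had 76.4 ± 9.84 CPM in obese dogs, against 158 ± 53.0 CPM in normal dogs, without overlap (log2 fold change −1.05 with a standard error of 0.252, adjusted p = 0.113, edgeR). BCL2L1, of the same family, had 29.2 ± 13.5 CPM in obese dogs, against 82.2 ± 38.9 CPM in normal dogs, with obese dog 1 at 49.6 CPM, above normal dog 1 at 47.7 CPM. An uncharacterised RNA that overlaps BCL2L1 had 1720 counts in all, against 4729 for BCL2L1, and their reads could not be told apart. FOS, an immediate-early factor, was lower in all 5 obese dogs than in the normal ones, with a log2 fold change of −2.32 (adjusted p = 0.179, edgeR). CCND1, the cyclin that drives entry into the cell cycle, had 1.25, 2.51, 1.93, 7.14 and 4.84 CPM in obese dogs 1 to 5, against 0.141, 0.664 and 0.446 CPM in normal dogs 1 to 3. The obese dogs were all higher for CCND1 (log2 fold change 3.10 with a standard error of 0.799, adjusted p = 0.13, edgeR). DESeq2 called MCL1, BCL2L1, FOS and CCND1, and limma-voom did so as well.

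**Figure D4:**
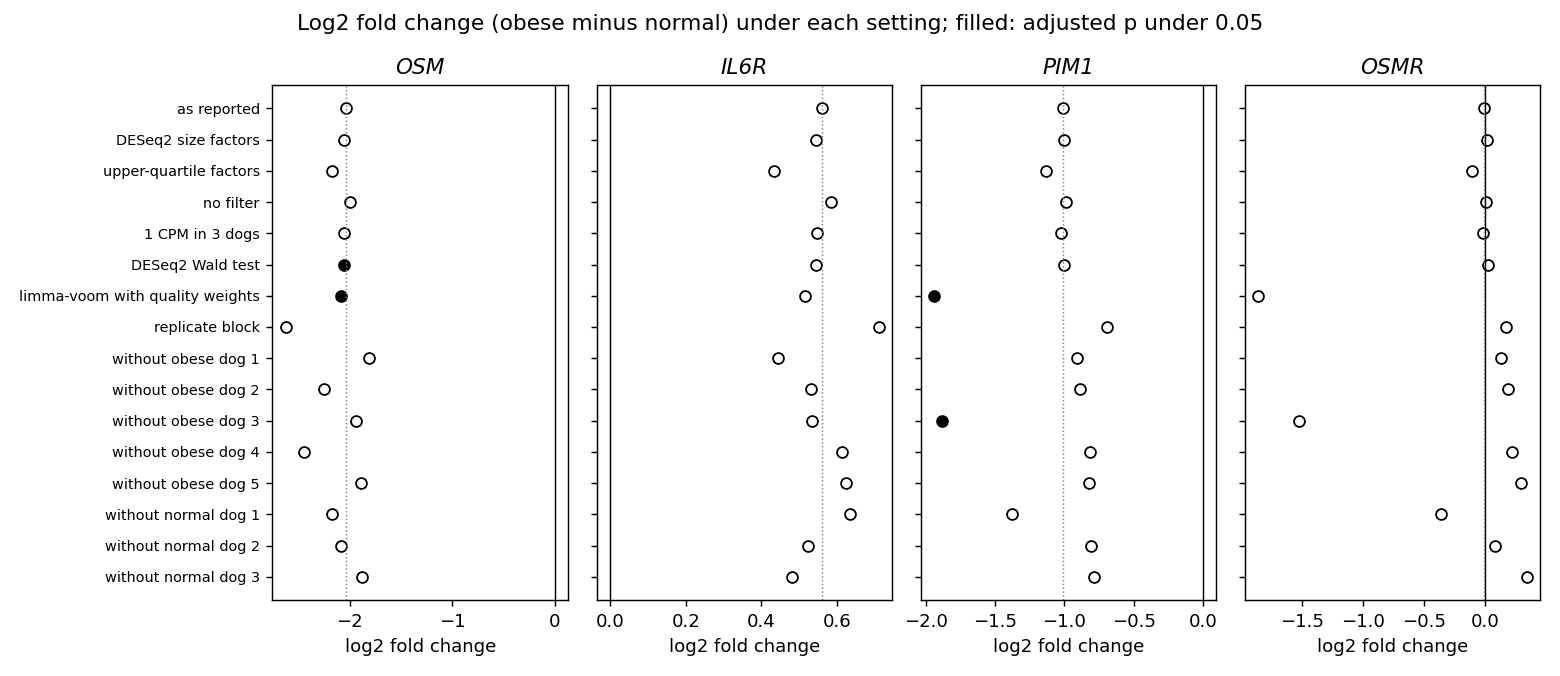
Log2 fold change (obese minus normal) of OSM, IL6R, PIM1 and OSMR as reported and under each of 15 alternative settings, with filled points where the adjusted p was under 0.05. OSM stays between −2.62 and −1.81 and IL6R between 0.43 and 0.71, while PIM1 and OSMR move to −1.88 and −1.52 without obese dog 3.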

How the data were processed

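The deposited tables, 1 for each dog, hold unnormalized counts by gene symbol. Libraries were 3′ tag libraries (Lexogen QuantSeq) from Trizol RNA, per the labels' protocols. The submitters' processing notes name Bowtie2 and bedtools without versions or roles, and genome build, annotation and strandedness are not stated. Where a symbol was repeated, the row of highest mean was used. The fit used edgeR 4.0.16 in R 4.3.3: filterByExpr by group (20632 of 35048 genes kept), TMM, robust glmQLFit and glmQLFTest, with Benjamini-Hochberg adjustment over all genes tested at 0.05. The standard error was taken as |log2 fold change| over the root of F. The common biological coefficient of variation was 0.54. Library totals of 10264202 to 14910982 set the precision, and Poisson intervals cover counting error only. The groups come from the labels, which name each library as a separate dog, and no 2 libraries agreed within sampling noise (lowest chi-square per degree of freedom 35.9).

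On simulated counts of 20195 genes for this comparison, the test called 0% of genes changed 2-fold, 10% changed 4-fold, 78% changed 8-fold and 96% changed 16-fold, with 1 false call. Alternatives were other scalings and filters, DESeq2 1.42.0, limma 3.58.1 (voom with quality weights), the dog number as a block, and leaving out each dog. Obese dogs 4 and 5 have no normal dog of the same number, so they do not bear on the fold change in the block setting. Overlapping genes and names were looked up in a RefSeq table of the assembly UU_Cfam_GSD_1.0. The members, the pathway lists and the marker lists were chosen with earlier results of these data known. Named were all members, up to 4 genes with the smallest p of each other pathway list together with any that passed, and the 3 genes nearest to OSM, except 1 gene that is not reported here. Genes outside this rule are said to have been chosen after their values were seen. Of the markers listed, PF4 and CR2 were not analysed here. Figures were drawn with matplotlib 3.10.9.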

Additional observations from a re-analysis of the deposited data

Results flagged for a closer look

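Obese dog 3 stood apart from the other 4 obese dogs in 3 of the 27 genes examined in this group of 5. PIM1 was 9.64 CPM in obese dog 3, where the next highest obese dog had 2.38 CPM. OSMR was 8.39 CPM in obese dog 3 and 1.36 CPM in the next highest. IL27, whose reads could not be told apart from those of APOBR, was 54.7 CPM in obese dog 3 and 24.8 CPM in the next highest. In each the gap exceeded Dixon's 95% critical value, which chance passes in about 1 of 20 groups of normally distributed values. Whether the CPM values follow that distribution was not tested, and among 27 genes some flags would be expected by chance. All 3 flags are from obese dog 3, so they are not separate observations. The same library had the highest monocyte, neutrophil and erythroid marker sums of the obese group, and the part of these in the 3 values was not tested.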

How the results depend on the processing

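Over the 7 tested members and 15 settings, 81 of 105 fold changes kept their direction and their side of the threshold, 4 came to pass and 20 turned in sign, and for 20 other named genes the numbers were 269 of 300, 23 and 8. OSM, IL6R, STAT3 and PIM1 kept their sign in all 15. Upper-quartile scaling moved the median of all genes to −0.03, where TMM gave 0.09, and a member can shift by as much through scaling alone.

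Members called numbered 1 with DESeq2, 2 with limma-voom and 0 to 1 when a dog was left out. Other pathway genes called numbered 6, 16 and 0 to 10 in these settings. Genes called higher and lower among all genes, 10 and 38 as reported, numbered 599 and 428 with DESeq2, 1881 and 2043 with limma-voom, and 0 to 661 and 2 to 1023 when a dog was left out, the highest of each without obese dog 3. Without each of the other dogs the counts were lower: higher and lower genes numbered 0 and 2 without obese dog 1, 0 and 2 without obese dog 2, 0 and 3 without obese dog 4, 3 and 12 without obese dog 5, and 0 and 33, 0 and 20, and 0 and 2 without normal dogs 1, 2 and 3.

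With the dog number as a replicate block, genes called higher and lower numbered 0 and 0, members called 0 and other pathway genes called 0, and 1634 genes had an unadjusted p under 0.05. Numbers 4 and 5 occur only among the obese dogs, so the fold changes of this fit rest on dogs 1 to 3 of each group. The OSM fold change there was −2.62 (adjusted p = 0.418, edgeR) and that of IL6R 0.71. The labels do not say whether the numbers pair the dogs. Deviations of same-numbered dogs from their group means had correlations of −0.03, −0.21 and 0.01. None of dogs 1 to 3 of either group correlated best with its own number. Deviations within so small a group depend on each other, so these correlations cannot decide whether the numbers stand for a pairing.

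The sign of OSMR turned to 0.00899 with DESeq2 size factors, 0.00299 with no filter, 0.022 with DESeq2, 0.17 with the block, and positive values without obese dog 1, 2, 4 or 5 or normal dog 2 or 3, within a range of −1.52 to 0.34 over the dogs left out. IL6ST turned to 0.0736 with limma-voom and turned without obese dog 3 or normal dog 1 (range −0.30 to 0.0791 over the dogs left out). JAK2 turned to −0.12 with upper-quartile factors, −0.31 with limma-voom, and turned without obese dog 1, 2 or 3 or normal dog 1 or 3 (range −0.13 to 0.23). EBI3 turned to 0.38 with the block and 0.39 without normal dog 3 (range −0.78 to 0.39). CNTF turned to −0.093 with upper-quartile factors and −0.10 with limma-voom, and without obese dog 1 or 2 or normal dog 2 or 3 (range −0.15 to 0.14). The cause of these turns was not tested. Of the members with counts, OSMR, PIM1 and SOCS3 had the fewest, and IL6 had none.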

Other observations

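Several genes of the pathway differed between obese dogs 1 and 2 and obese dogs 4 and 5, and the values below were picked after they were seen. JAK2 was 511 and 489 CPM in obese dogs 1 and 2 and 197 and 191 CPM in obese dogs 4 and 5. STAT4 followed the same order, with 504 and 682 CPM against 193 and 175 CPM, and so did TIMP1, a protease inhibitor, with 752 and 404 CPM against 134 and 170.4 CPM. In the opposite order, CISH had 1.48 and 2.78 CPM in obese dogs 1 and 2 and 15.0 and 18.5 CPM in obese dogs 4 and 5, PIM2, a kinase related to PIM1, had 18.9 and 25.8 CPM against 97.6 and 112 CPM, and SOCS4 had 24.8 and 36.8 CPM against 65.5 and 60.2 CPM. Each dog of the 2 pairs is of another breed, and platelet markers summed to 1184 and 560.1 CPM in obese dogs 1 and 2 and to 60.5 and 164 CPM in obese dogs 4 and 5. Obese dog 3 did not keep to the same side. It had 456 CPM of JAK2, 11.3 CPM of PIM2 and 16.7 CPM of SOCS4, nearer to obese dogs 1 and 2. Its TIMP1 value of 146 CPM lay between those of obese dogs 4 and 5. Its values for STAT4, 252 CPM, and CISH, 6.12 CPM, lay between the 2 pairs. The division was not tested, because its samples were grouped by the values themselves.

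Obese dog 3 also had the highest or lowest value of the obese group in other genes of the pathway, picked here after their values were seen. PTPN1, a phosphatase that acts on JAK2, was 847 CPM in obese dog 3 and 1011 CPM in normal dog 2, with 187 to 231 CPM in the other obese dogs and 397 and 493 CPM in the other normal dogs. JUNB, an AP-1 factor, was 2466 CPM in obese dog 3 and 416 to 737 CPM in the other obese dogs, against 803 to 1108 CPM in the normal dogs. CEBPB, a transcription factor of acute-phase and myeloid genes, was 268 CPM in obese dog 3 and 18.5 to 89.4 CPM in the other obese dogs, against 141 to 288 CPM in the normal dogs. PIM3 was lowest in obese dog 3, at 50.6 CPM, against 275 to 386 CPM in the normal dogs. The other obese dogs were spread from 119 CPM to 587 CPM, the latter in obese dog 2, so obese dog 3 was not set apart for PIM3.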
